A study of Sus scrofa with 6 samples.

Results

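The genes described here code for the collagens, the proteoglycans and their partners, the elastic fibre proteins, the basement membrane proteins and the adhesive glycoproteins of the extracellular matrix of the aortic valve. They were chosen by symbol from the annotation of the array. A gene was taken when a probe set was annotated with 1 symbol that begins with COL and a digit (COL2A1 excepted), FBN, FBLN, EFEMP, MFAP or THBS, or with LAM followed by A, B or C and a digit, or that is one of a fixed set of further matrix symbols such as DCN, BGN, VCAN, FN1, SPARC and TNC. This gave 40 genes, measured by 79 probe sets, of the 6765 genes that the annotation names with a single symbol. A probe set is a group of short probes on the array that report 1 transcript, and where a gene had several, the one with the highest mean over the 6 arrays represents it. Of the 40 genes, MFAP1, which codes for a splicing protein, matches only by its name. MFAP3 was put with it here as a symbol match, and its place in the matrix was not assessed. COL1A1, COL4A1, COL6A1, ELN, HSPG2, FMOD, OGN, NID1, EMILIN1 and DDR2 had no probe set under this rule and were not analysed here.

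The matrix of the leaflet is made and turned over by valvular interstitial cells, the fibroblast-like cells within the tissue. Fibrillar collagens carry the load of the closed valve, proteoglycans hold water and cushion the layers, and elastic fibres, built on fibrillin microfibrils, let the leaflet recoil. Basement membrane proteins form sheets under the endothelium and around some cells, and the matricellular glycoproteins tune how cells attach to all of these. Disorder of this layered matrix is a hallmark of calcific aortic valve disease.

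Leaflets had been taken from 3 castrated male and 3 female pigs, 1 pig per array. The pigs of both sexes were of mixed breed, about 90 kg in weight and 5 months old, and no treatment is named. The endothelium of every leaflet was scraped off with a scalpel before total RNA was isolated. The males as a model lack testicular hormones, and castration and sex cannot be told apart, since every male was castrated. Each sample is whole tissue, so that fewer cells of a type and less RNA per cell cannot be told apart. The authors computed all expression values by robust multi-array analysis (RMA) on the log2 scale, where a difference of 1 is 2-fold. Differences are male minus female, so that a negative value is lower in male leaflets.

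The 6 arrays had medians between 7.33 and 7.38 and correlated at 0.987 to 0.993 with arrays of the same sex and at 0.972 to 0.987 with arrays of the other. The Y-linked EIF1AY, at 10.07, 9.98 and 10.06 on the male arrays against 3.38, 3.47 and 3.04 on the female arrays, fitted the stated sexes. Of 14 markers of valvular interstitial cells and fibroblasts 12 were measured, none under the 25th percentile of the probe sets (5.55), and VIM, which codes for vimentin, averaged 14.40 in males and 14.37 in females. Of 8 measured cardiomyocyte markers 6 were under that percentile. Endothelial transcripts were still measured after scraping, with 2 of 16 markers under the percentile.

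The comparison asked whether healthy leaflets of the sexes differ in the transcripts of their matrix. Most of these transcripts had slightly lower means in male leaflets. MFAP5, a glycoprotein of the fibrillin microfibrils, was 3.11-fold higher in male leaflets. It was called only after a filter on variation, which the difference between the sexes itself helps to pass, and not over all probe sets, and the call was lost without any one of 4 of the 6 arrays. Of the 40 genes 33 had a lower mean in males (82.5%, against 50.9% of all probe sets) and 7 a higher one. The median log2 fold change was -0.27 over the 40 genes and -0.01 over all 23999 probe sets, and it was -0.17 over the 40 genes without male 1. For 18 genes (45%) every male array lay below every female array, as for 11.4% of all probe sets, and for 2 genes, MFAP5 and THBS3, every male array lay above, as for 11.1%. The arrays of the sexes overlapped for the other 20. Without regard to direction, 22.4% of all probe sets did not overlap. The counts of genes rest on the brightest probe set of each gene, and most other probe sets of the 40 genes overlapped. With the mean of all probe sets of a gene, 16 genes lay lower and 1 higher without overlap. Over the whole array 11.8% and 11% did so under that rule.

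Each gene was tested with limma over all 23999 probe sets, and was called if its p, adjusted after Benjamini and Hochberg, was under 0.05 and its change at least 2-fold. On all 6 arrays none of the 40 genes was called, against 0.304% of all probe sets, and their adjusted p ranged between 0.0783 and 0.992. Only 2 of the 40 genes changed at least 2-fold, so that the rule could call no others. At an unadjusted p under 0.05, 17 of the 40 genes were lower in males (42.5%, against 8.83% of all probe sets) and 2 were higher (8.08% of all probe sets). The study also applied a filter by coefficient of variation (CV, the SD divided by the mean), read here as keeping the 10% with the highest CV over the 6 arrays. That direction is a reading too, since the methods describe the filter as removing values that were not alike between replicates. MFAP5 and TNC were among the 2412 probe sets kept, where 7.59% were called, 4.6% higher and 2.99% lower in males, and MFAP5 was called. That call was lost without male 1, male 2, female 1 or female 2, and over all probe sets THBS2 was called without male 3, where 1.19% of all probe sets were called. The filter keeps probe sets that vary, difference between the sexes included, and adjusts over fewer tests. With 3 arrays per sex, exact permutation of the labels could not reach a p under 0.1.

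**Figure D1:**
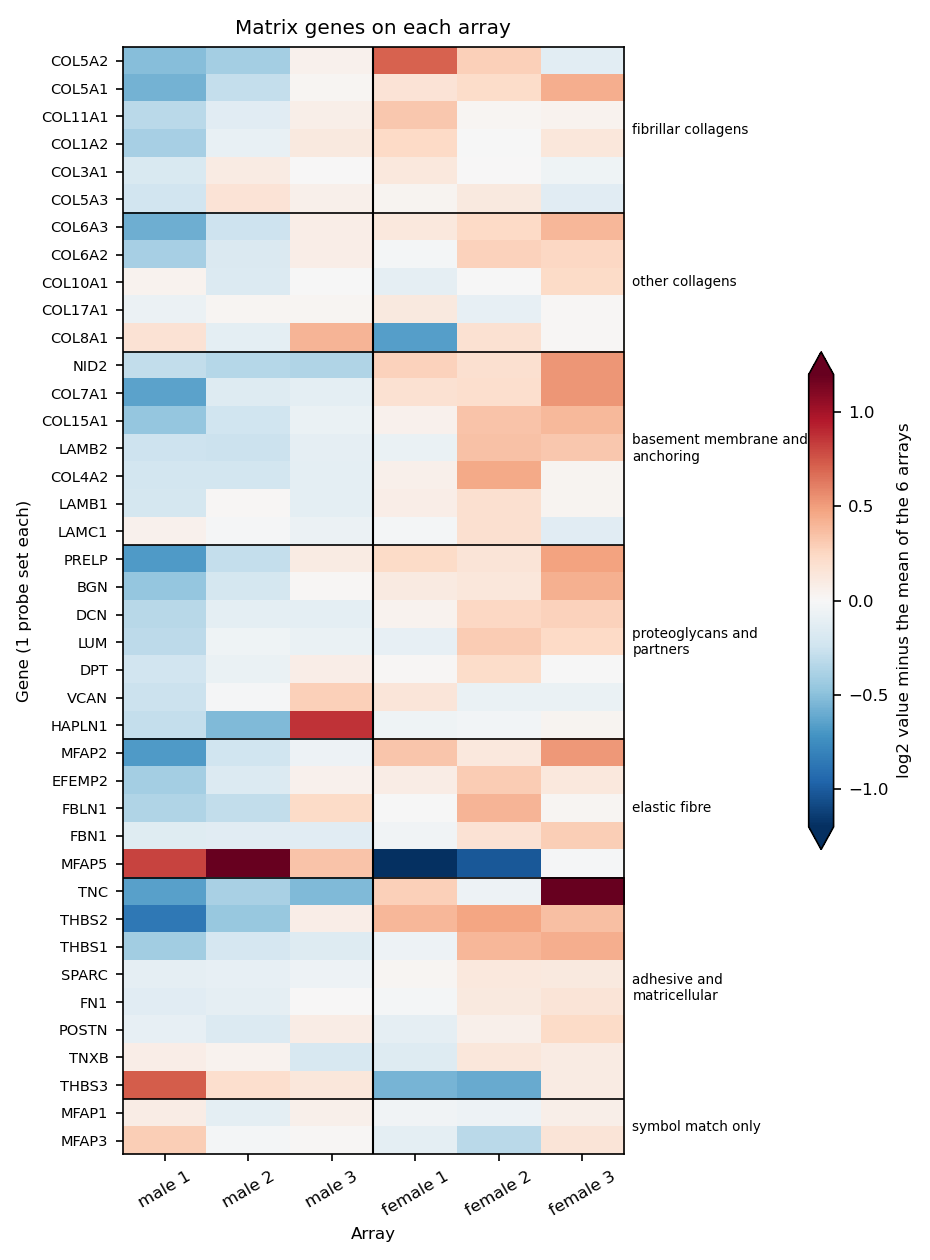
Deviation of each matrix gene (rows, grouped by role) from its mean over the 6 arrays, in log2 units, on the male arrays (left) and the female arrays (right), with the colour scale clipped at both ends. Male 1 is the lowest array for 26 of the 40 genes, and MFAP5 and THBS3 are the genes with all 3 male arrays above all 3 female arrays.

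**Figure D2:**
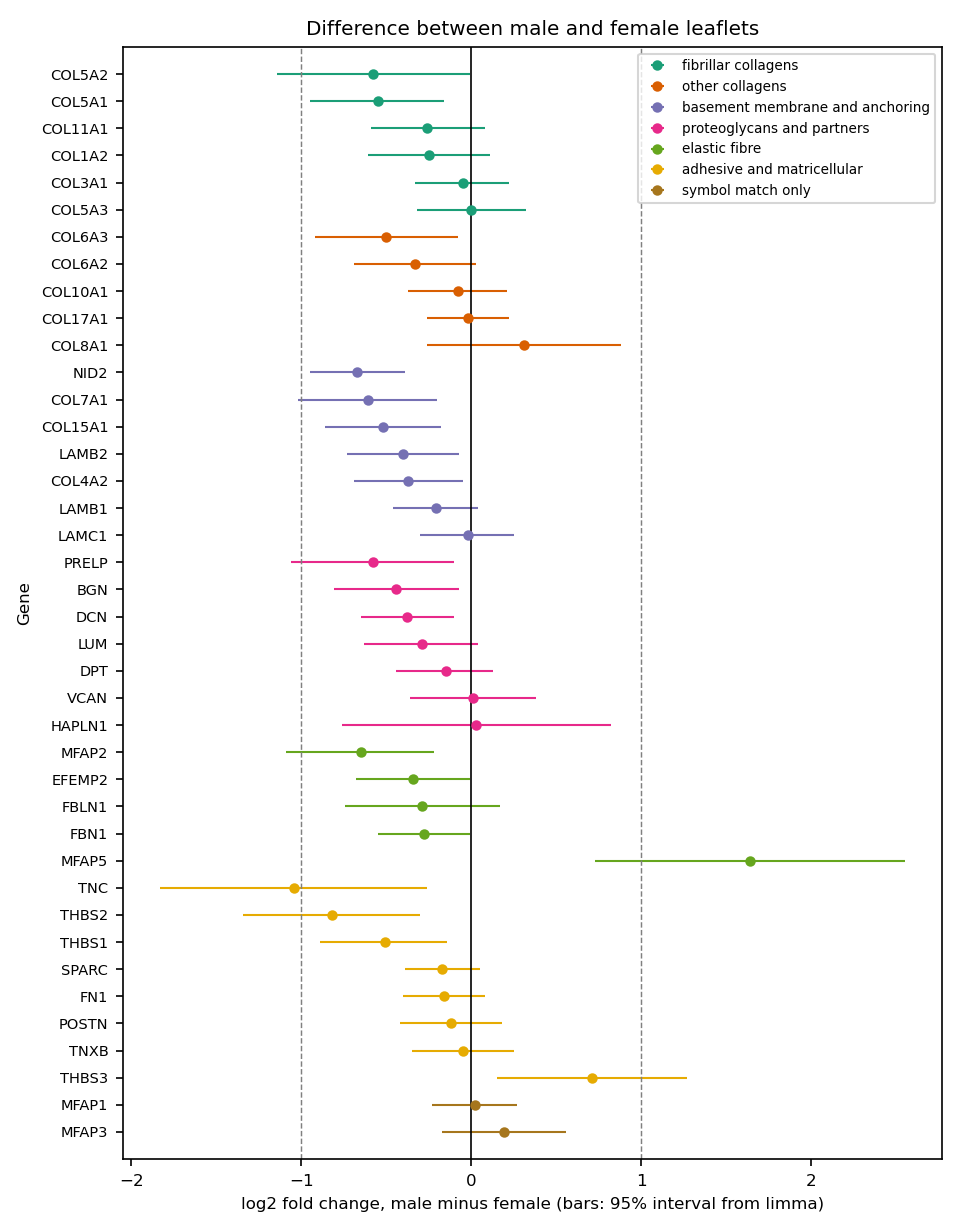
Log2 fold change, male minus female, of each of the 40 matrix genes (points) with its 95% interval from limma (lines), grouped by role. The values run between -1.04 for TNC and 1.64 for MFAP5, and most lie left of 0.

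The elastic fibre genes held both directions. Of 5 genes 4 had lower means in males and 1 a higher one. Without overlap 3 genes lay lower and MFAP5 higher, as did 11.4% and 11.1% of all probe sets. The median log2 fold change of the 5 was -0.29. MFAP5 read 10.11, 10.60 and 9.64 in males against 7.87, 8.28 and 9.28 in females. The highest female array, female 3, stood 0.36 below the lowest male array, male 3, and the mean was 10.12 ± 0.48 in males and 8.48 ± 0.73 in females (SD, n = 3 each). The log2 fold change was 1.64 (SE 0.39, 95% interval 0.73 to 2.55), with an adjusted p of 0.0439 after the CV filter and of 0.136 over all probe sets. After the filter the call was lost without male 1 (adjusted p = 0.0979), male 2 (0.125), female 1 (0.101) or female 2 (0.0692), while the fold change stayed positive.

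MFAP2, another microfibril-associated glycoprotein, had the lower mean in males. It read 10.03, 10.47 and 10.65 in males against 11.04, 10.84 and 11.23 in females, with every male array below the female ones and a log2 fold change of -0.65 (SE 0.18, 95% interval -1.09 to -0.22, adjusted p = 0.177). FBN1 codes for fibrillin-1, the backbone of the microfibril on which elastin is laid down. Its values were 12.68, 12.69 and 12.69 in males against 12.78, 13.00 and 13.12 in females, for a log2 fold change of -0.28 (SE 0.12, adjusted p = 0.287), and another FBN1 probe set also gave -0.28. The 3 male arrays were nearly equal, and the spread lay among the females. EFEMP2, or fibulin-4, which is needed for elastic fibre assembly, had a log2 fold change of -0.34 without overlap (adjusted p = 0.288). The gap between the sexes was 0.04, and other EFEMP2 probe sets gave -0.25 and -0.09 with overlap. FBLN1, or fibulin-1, had a log2 fold change of -0.29 with overlap (adjusted p = 0.497).

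The basement membrane and anchoring genes had the lowest median of the groups. All 7 had lower means in males, as did 50.9% of all probe sets. Without overlap 6 lay lower, as did 11.4% of all probe sets, and the median log2 fold change was -0.40. NID2, or nidogen-2, which bridges laminin and type IV collagen, read 11.01, 10.96 and 10.95 in males against 11.58, 11.50 and 11.84 in females. The males lay within 0.06 of each other, 0.49 below the lowest female, and the log2 fold change of -0.67 (SE 0.12, 95% interval -0.95 to -0.39) had the smallest p of the 40 genes (unadjusted p = 0.000705, adjusted p = 0.0783). COL15A1, the type XV collagen that ties basement membranes to the fibrils beneath, had 12.92, 13.14 and 13.30 in males against 13.43, 13.72 and 13.77 in females, and a log2 fold change of -0.52 (SE 0.14, adjusted p = 0.170). COL7A1 codes for the collagen of anchoring fibrils.

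COL7A1 read 6.87, 7.35 and 7.39 in males against 7.69, 7.71 and 8.04 in females, for a log2 fold change of -0.61 (SE 0.17, adjusted p = 0.179). LAMB2, the laminin β2 chain, had 11.12, 11.11 and 11.26 in males and 11.29, 11.72 and 11.69 in females, for a log2 fold change of -0.40 (SE 0.14, adjusted p = 0.229). Male 3 and female 1 were only 0.03 apart for LAMB2, so that the absence of overlap rests on a narrow gap. COL4A2, a chain of the type IV collagen network, stood at a log2 fold change of -0.37 (adjusted p = 0.248) and LAMB1 at one of -0.21 (adjusted p = 0.376), both without overlap, while another LAMB1 probe set gave 0.05. LAMC1, the γ1 chain shared by most laminins, overlapped at -0.02 (95% interval -0.30 to 0.25), and its 3 other probe sets gave 0.10, 0.38 and 0.08.

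Among the proteoglycans and their partners 5 of 7 genes had lower means in males, and the median log2 fold change was -0.29. The 4 small leucine-rich proteoglycans, which bind collagen fibrils and set their spacing, had a median of -0.41. Of them 3 lay lower in males without overlap, as did 11.4% of all probe sets. DCN (decorin) read 13.91, 14.12 and 14.12 in males against 14.28, 14.49 and 14.52 in females, for a log2 fold change of -0.38 (SE 0.12, 95% interval -0.65 to -0.10, adjusted p = 0.197). BGN (biglycan), its close relative, read 13.38, 13.63 and 13.86 in males against 13.95, 13.98 and 14.27 in females, for a log2 fold change of -0.44 (SE 0.16, adjusted p = 0.235). Male 1 was the lowest array for both.

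PRELP, which anchors basement membranes to connective tissue, read 13.36, 13.75 and 14.14 in males against 14.27, 14.19 and 14.52 in females, for a log2 fold change of -0.58 (SE 0.20, adjusted p = 0.234). The males spread over a wider range than the females, and male 3 lay 0.06 below female 2. LUM (lumican) overlapped, with 13.27, 13.53 and 13.50 in males against 13.48, 13.88 and 13.82 in females and a log2 fold change of -0.29 (SE 0.14, adjusted p = 0.348). VCAN codes for versican, the large hyaluronan-binding proteoglycan of the leaflet. It had nearly equal means, 13.61 ± 0.27 in males and 13.60 ± 0.13 in females (SD, n = 3 each), with an interval of -0.36 to 0.38 for the difference. Its 4 other probe sets gave -0.20, -0.16, 0.21 and 0.15. HAPLN1, the link protein that fastens such proteoglycans to hyaluronan, read 9.04, 8.80 and 10.20 in males against 9.28, 9.30 and 9.36 in females, so that the male arrays lay on both sides of 3 nearly equal female arrays. DPT (dermatopontin), which binds decorin, had a log2 fold change of -0.15 with overlap (adjusted p = 0.568).

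The 6 fibrillar collagen genes had a median log2 fold change of -0.25, and all 6 means were lower in males, although the difference of COL5A3 rounded to 0.00 (95% interval -0.32 to 0.32). Only COL5A1 did not overlap. It codes for the α1 chain of type V collagen, which starts fibrils and limits their width, and read 12.27, 12.55 and 12.86 in males against 13.00, 13.06 and 13.27 in females. Its log2 fold change was -0.55 (SE 0.17, 95% interval -0.95 to -0.16, adjusted p = 0.191), and its 5 other probe sets gave smaller values, between -0.33 and 0.05, all with overlap. COL5A2 had a log2 fold change of -0.58 with overlap (adjusted p = 0.288), because female 3 at 8.26 lay below male 3 at 8.44.

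The probe sets of COL1A2 and COL3A1, which code for chains of the main fibrillar collagens, did not separate the sexes. COL1A2, of type I collagen, read 8.97, 9.28 and 9.49 in males against 9.61, 9.37 and 9.51 in females, for a log2 fold change of -0.25 (SE 0.15, 95% interval -0.61 to 0.11, adjusted p = 0.459). COL3A1, of type III collagen, read 7.05, 7.33 and 7.23 in males against 7.36, 7.23 and 7.18 in females, for a log2 fold change of -0.05 (SE 0.11, 95% interval -0.33 to 0.22, adjusted p = 0.850). Those intervals leave room for differences in either direction. COL3A1 had only this probe set, and its mean of 7.23 lay under the medians of the 6 arrays (7.33 to 7.38). The other COL1A2 probe set had a mean of 5.61 and gave -0.11. How well these probe sets report type I and type III collagen was not tested. COL11A1 had a log2 fold change of -0.26 with overlap (adjusted p = 0.406).

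Of the 5 other collagens 4 had lower means in males, and the median log2 fold change was -0.08. COL6A3, of the beaded type VI filaments around cells, read 12.87, 13.21 and 13.53 in males against 13.58, 13.69 and 13.85 in females, for a log2 fold change of -0.50 (SE 0.18, adjusted p = 0.237). The gap between male 3 and female 1 was 0.05. COL6A2, another chain of the same filaments, had a log2 fold change of -0.33 with overlap (adjusted p = 0.328). COL8A1, a network-forming collagen of vessels and valves, had the higher mean in males, with 11.43, 11.14 and 11.67 in males against 10.60, 11.44 and 11.27 in females, for a log2 fold change of 0.31 (95% interval -0.26 to 0.88, adjusted p = 0.562), and its 3 other probe sets gave 0.17, 0.06 and -0.01. Without female 1, its lowest array, the log2 fold change of COL8A1 was 0.06. COL10A1, the collagen of hypertrophic cartilage, and COL17A1, of hemidesmosomes, had log2 fold changes of -0.08 and -0.02, and another COL17A1 probe set gave 0.04. Over all 14 collagen genes, whatever their group, 13 had lower means in males, as did 50.9% of all probe sets, and the median was -0.30. Without overlap 5 lay lower, as did 11.4% of all probe sets.

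**Figure D3:**
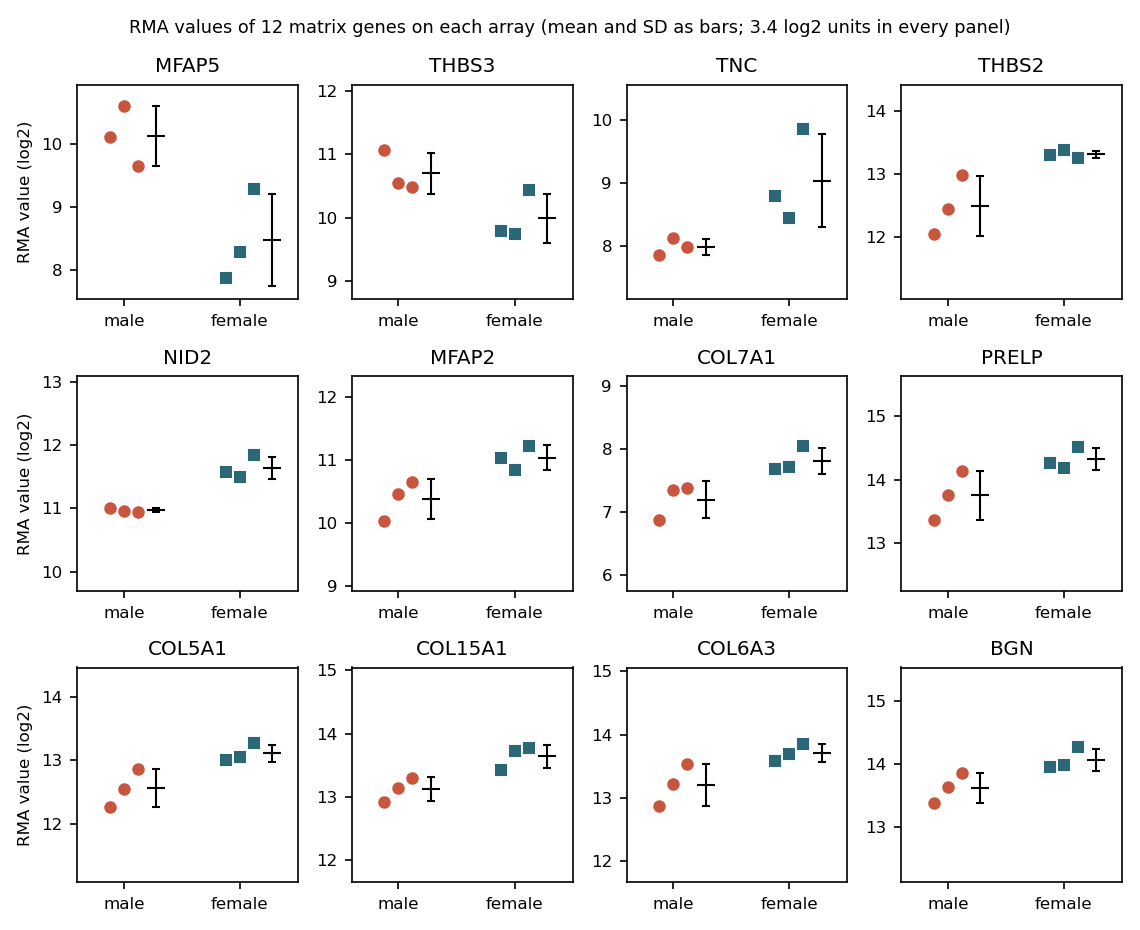
Log2 expression of 12 matrix genes on each array, males left and females right, with points for arrays and bars for group means, every panel having the same span of log2 units. All 3 male arrays lie above the female arrays for MFAP5 and THBS3 and below them for the other 10 genes.

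The adhesive and matricellular glycoproteins had a median log2 fold change of -0.17, and 7 of 8 had lower means in males. The thrombospondins differed in direction. THBS2, which binds matrix proteases and restrains vessel growth, read 12.05, 12.45 and 12.98 in males against 13.30, 13.38 and 13.26 in females. The females lay within 0.12 of each other and the males spread over 0.93 below them, with a log2 fold change of -0.82 (SE 0.22, 95% interval -1.34 to -0.30, adjusted p = 0.168). Without male 3, its highest male array, the log2 fold change was -1.06 and the gene was called over all probe sets (adjusted p = 0.0398), as were 1.19% of all probe sets then, against 0.304% on all 6 arrays. THBS1, known for activating latent TGF-β, read 11.68, 11.89 and 11.94 in males against 12.03, 12.49 and 12.53 in females, for a log2 fold change of -0.51 (SE 0.16, adjusted p = 0.197). Its 4 other probe sets lay between -0.62 and -0.21, all with overlap.

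THBS3 belongs to the pentameric thrombospondins, as does COMP. Its values were 11.07, 10.54 and 10.48 in males against 9.78, 9.74 and 10.44 in females, for a log2 fold change of 0.71 (SE 0.24, 95% interval 0.15 to 1.27, adjusted p = 0.216). Female 3 lay 0.04 below male 3, and the 2 other probe sets gave 0.35 without overlap and 0.20 with overlap. TNC (tenascin-C), a glycoprotein of growing and remodeling matrix, read 7.86, 8.13 and 7.99 in males against 8.80, 8.45 and 9.86 in females. The 3 males lay close together and female 3 stood apart from the other females, and the log2 fold change of -1.04 (SE 0.33, 95% interval -1.83 to -0.26) had an adjusted p of 0.202 over all probe sets and 0.107 after the CV filter. Without female 3 the log2 fold change was -0.64, and TNC was no longer kept by the filter. TNXB, a tenascin of collagen-rich tissue, stood at a log2 fold change of -0.05 (95% interval -0.35 to 0.25).

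SPARC, a collagen-binding glycoprotein, read 14.66, 14.67 and 14.71 in males against 14.79, 14.89 and 14.88 in females, a small log2 fold change of -0.17 without overlap (SE 0.09, adjusted p = 0.394). FN1 (fibronectin) read 14.19, 14.22 and 14.33 in males against 14.30, 14.44 and 14.48 in females, with overlap and a log2 fold change of -0.16 (SE 0.10, adjusted p = 0.469), and another probe set with a mean of 10.04 gave -0.64 with overlap. Its 2 remaining probe sets had means of 5.75 and 3.25, near or under the 25th percentile. POSTN (periostin), which aids collagen crosslinking, overlapped at 13.46 ± 0.13 in males and 13.58 ± 0.17 in females (SD, n = 3 each), a log2 fold change of -0.12 (SE 0.13, adjusted p = 0.688). A dimmer POSTN probe set read 4.08, 4.99 and 6.49 in males against 6.16, 6.28 and 7.41 in females and gave -1.43 (adjusted p = 0.300). It varied far more among pigs of one sex than the brighter one. The symbol matches MFAP1 and MFAP3 had log2 fold changes of 0.02 and 0.19 with overlap.

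Genes with high values made up most of those without overlap. Of the 25 genes with a mean of at least 11, 15 had every male array below every female array, as did 14.2% of all probe sets with such means, and 23 had a lower mean in males, as did 42% of those probe sets. Their median log2 fold change was -0.33, against 0.04 over all probe sets with such means. Of the 15 genes with a mean under 11, 3 lay below and 2 above without overlap, and their median was -0.05.

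Male 1 was the lowest of the 6 arrays for 26 of the 40 genes (65%), as for 23.1% of all probe sets and 22% of those with a mean of at least 11. The median deviation of the 40 genes from their own means was -0.27, -0.15 and 0.02 on the male arrays and 0.03, 0.16 and 0.14 on the female arrays. Male 3 therefore lay level with female 1 in this median, while male 1 lay lowest. The highest array was female 2 for 12 genes and female 3 for 15. Over all probe sets the median deviation of an array was between -0.02 and 0.02.

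Markers of other cell types also differed between the arrays. The 16 measured endothelial markers had a median log2 fold change of 0.79. In the mean of males 13 were higher and 3 lower, where 50.9% of all probe sets were lower. The summed linear level was 23244 to 44330 in males against 16637 to 25061 in females. The endothelial genes called after the CV filter were CALCRL (log2 fold change 1.42, adjusted p = 0.0339), ESAM (1.59, 0.0395) and ICAM2 (1.70, 0.0260). Of the probe sets kept by that filter 7.59% were called. Over all probe sets none of these genes was called (limma adjusted p = 0.0641, 0.115 and 0.0751). The CALCRL probe set was dim, at 6.39, 6.21 and 5.51 in males against 4.53, 4.73 and 4.59 in females, with male 3 and all females under the 25th percentile. By array, the median deviation of the endothelial markers was 0.86, 0.61 and -0.02 in males and -0.56, -0.09 and -0.70 in females. The male with the most endothelial signal was thus male 1, the one with the lowest matrix genes, and male 3 had the least of the males. The females were not ordered in this way. Female 2 had the most endothelial signal of the females (-0.09) and also the highest median deviation of the matrix genes (0.16).

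Of 10 listed cartilage genes 6 were measured, HAPLN1 among them. Their median log2 fold change was -1.03 and their summed linear level was 3276 to 11816 in males against 16209 to 29741 in females. After the CV filter ACAN (aggrecan) was called at -2.29 (adjusted p = 0.00990), CILP at -2.02 (0.0489) and COMP at -1.85 (0.0495), all glycoproteins or proteoglycans of cartilage and tendon. Of the probe sets kept by that filter 7.59% were called. Over all probe sets none of these genes was called (limma adjusted p = 0.0691, 0.18 and 0.176). The means of 4 of the 6 genes were lower in males and of 2 higher, namely HAPLN1 and SOX9, the regulator of cartilage genes, with log2 fold changes of 0.03 and 0.57 and overlap (SOX9 adjusted p = 0.445). The median deviation was -1.19, -0.64 and 0.04 on the male arrays and 0.55, 0.24 and 0.65 on the female arrays. The 12 valvular interstitial and fibroblast markers had a median of -0.11 and a summed linear level of 93340 to 104325 in males against 103515 to 111987 in females. Their means were higher in males for 5 and lower for 7, between -1.08 for TCF21 and 1.20 for S100A4. Without overlap 2 lay above and 3 below, as did 11.1% and 11.4% of all probe sets. The part of these cell types in the values of the matrix genes was not tested.

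**Figure D4:**
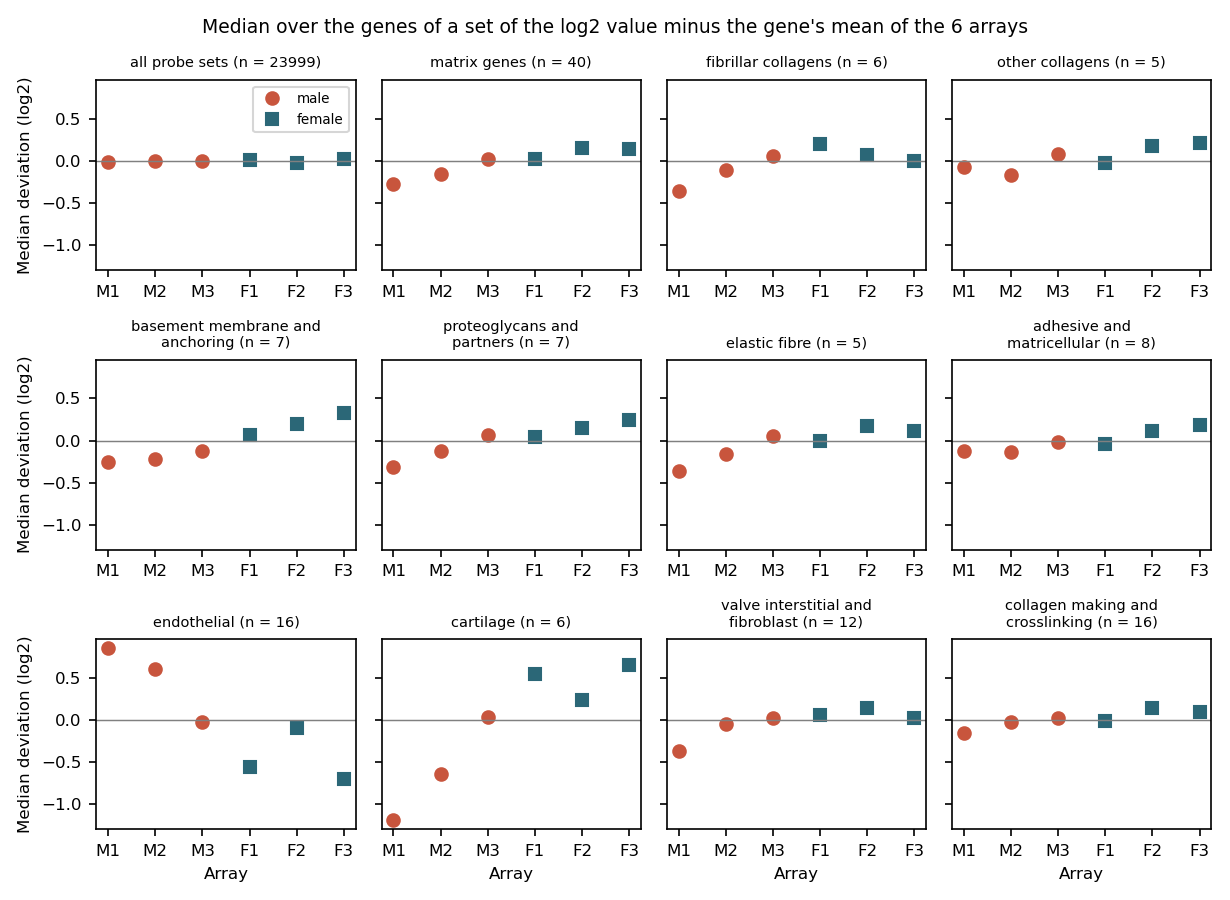
Median deviation of gene groups from their own means on each array, in log2 units, for all probe sets, the 40 matrix genes, their 6 role groups and 4 further lists, with males left and females right. Male 1 is lowest for the 40 matrix genes (-0.27) and the cartilage genes (-1.19) and highest for the endothelial markers (0.86). Among the females, female 2 is highest for both the matrix genes (0.16) and the endothelial markers (-0.09).

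Genes that process or bind the matrix were looked at in 3 lists, and none of their genes was called in either fit. Of 16 measured genes that make and crosslink collagen 11 had lower means in males, as did 50.9% of all probe sets. Without overlap 3 lay lower, as did 11.4% of all probe sets, and the median log2 fold change was -0.17. LOX, the lysyl oxidase that crosslinks collagen and elastin, read 9.80, 9.74 and 9.74 in males against 10.14, 10.19 and 10.22 in females, for a log2 fold change of -0.43 (SE 0.09, adjusted p = 0.117). Its relative LOXL1 read 11.34, 11.78 and 11.44 in males against 11.86, 12.25 and 11.86 in females, for a log2 fold change of -0.47 (SE 0.16, adjusted p = 0.230). Both enzymes had every male array below every female array.

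Of 16 listed genes of elastic fibres and TGF-β binding 7 were measured. They were EMILIN2, ASPN, FGF2, TGFBR1 and the cytokines TGFB1, TGFB2 and TGFB3, and no LTBP gene or FBLN5 was among them. The median log2 fold change of these 7 was 0.31, with 4 means higher and 3 lower in males. Most of them code for signalling proteins, so that this median does not describe elastic fibre genes. The cytokine TGFB1 had a log2 fold change of 0.84 with overlap (adjusted p = 0.204) and ASPN, or asporin, a leucine-rich proteoglycan that binds TGF-β, one of -0.55 without overlap (adjusted p = 0.204). Of 13 measured matrix receptors 6 had higher and 7 lower means, with a median of -0.08. The β3 integrin ITGB3, a receptor for fibronectin and other matrix ligands, averaged 9.73 in males and 8.53 in females without overlap, for a log2 fold change of 1.20 (SE 0.21, adjusted p = 0.0812 over all probe sets and 0.0527 after the CV filter). Syndecan-1, coded by SDC1, is a heparan sulfate proteoglycan of the cell surface. It read 9.10, 9.59 and 9.95 in males against 10.47, 10.27 and 10.83 in females, for a log2 fold change of -0.97 (SE 0.24, adjusted p = 0.145).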

How the data were processed

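Total RNA (400 ng per sample) of scraped leaflets was measured on 6 Affymetrix Porcine Genome Arrays. The authors ran RMA under R 2.12.0 and deposited the resulting log2 values. RMA corrects the background, brings the arrays to 1 distribution and summarizes each probe set. The values were used as deposited. The background correction was not repeated. The array annotation gives 10099 probe sets 1 gene symbol and 198 several.

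Males and females were compared with limma 3.58.1 (statmod 1.5.0, R 4.3.3; lmFit and eBayes, no covariate) over the 23999 probe sets other than controls, and again over the 2412 of 24123 kept by the CV filter. That the filter keeps the highest CVs, and a share of 10%, is a reading of the methods, whose text names no share, and was taken over from earlier work on these data. Python 3.11.15 with matplotlib 3.10.9 drew the figures. The fit was tested on simulated data. There, changes of 0.5 log2 units were called in 0%, of 1.5 in 83.2% and of 3 in 96.7%. An absence of calls therefore does not speak against differences as small as 0.5. No scan or batch label is given in the sources used here. The p values set the difference between the sexes against the spread among pigs of the same sex, with limma drawing on the variances of all tested probe sets.

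The genes and lists were chosen with earlier results of these data known. Genes given in full are those called, the 15 with the smallest p and a fixed set of main matrix genes (of these, those measured). List genes are named where called or among the 2 smallest p of the lists on processing and binding, and the levels of different probe sets are not compared. Alternatives covered scaling, array weights, other CV filters, other probe set rules, a replicate block and leaving out each array.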

Additional observations from a re-analysis of the deposited data

How the results depend on the processing

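With 3 arrays per sex, the number of arrays limits every value. The count of matrix genes called over all probe sets stayed at 0 in all alternatives except 1 (range 0 to 1 when single arrays were left out), when THBS2 was called at -1.06 without male 3, with 285 of all probe sets called, against 73 on 6 arrays. Filtering dim probe sets, centring, quantile normalization, an intensity trend, robust variance and other probe set rules left it at 0. Array weights left it at 0 too, although NID2 then had an adjusted p of 0.0281 from limma. Its log2 fold change of -0.71 was under the 2-fold limit, and 1.17% of all probe sets were called in that fit. After the CV filter 1 gene was called, with 183 of 2412 kept probe sets. Array weights gave 2 (MFAP5 and TNC, with 530 of 2412) and single arrays left out 0 to 1 (with 56 to 391). The count of genes whose sexes do not overlap was 20, was 19 after centring and 17 with the mean of all probe sets of a gene, and ranged between 20 and 28 without single arrays. It was 28 without male 3, where 19.8% of all probe sets lay lower and 18.4% higher without overlap, against 11.4% and 11.1% on 6 arrays. The median log2 fold change (-0.27) ranged between -0.365 and -0.17, the last without male 1. Over all 79 probe sets of these genes, an alternative chosen after seeing the data, the median was -0.16. Replicate numbers are shared by the sexes, and the labels do not say whether they pair the pigs. The deviations of males and females of the same number correlated at -0.1, 0.01 and 0.27, which does not decide it. With the number as a block, 0 matrix genes were called over all probe sets and 1 after the CV filter, and the calls among all probe sets were 204 against 73 without the block. Array weights, whose estimation did not fully converge on 1 table, gave 280 such calls, and single arrays left out gave 13 to 285. Of 40 genes 31 kept their sign throughout. The sign turned for genes near 0 (the cause was not tested): VCAN at -0.01 with quantile normalization, and with array weights VCAN at -0.02, COL3A1 at 0.02, COL5A3 at 0.11, HAPLN1 at -0.3, LAMC1 at 0.02, MFAP1 at -0.07 and TNXB at 0.01. With the mean of all probe sets of a gene it turned for COL17A1 at 0.01 and LAMC1 at 0.13. Without single arrays it turned for 9 genes, whose values then ranged between -0.08 and 0.03 for COL17A1, -0.12 and 0.02 for COL3A1, -0.08 and 0.11 for COL5A3, -0.02 and 0.09 for MFAP1, -0.39 and 0.31 for HAPLN1, -0.1 and 0.07 for LAMC1, -0.14 and 0.03 for TNXB, -0.13 and 0.14 for VCAN, and -0.15 and 0.01 for COL10A1.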
